A study of Homo sapiens with 12 samples.

Results

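A block of 31 neighbouring genes on the long arm of chromosome 12 was followed across 6 human lymphoma cell lines. The genes run from TBX5 to ACADS, and they had been picked because their signal lay higher together in 1 line of classical Hodgkin lymphoma, KM-H2, than in the mean of the other Hodgkin lines. The members were thus chosen by the difference between KM-H2 and those lines, which is given below as a description with no test. A probe set, a group of short probes that reads 1 or more transcripts, was taken as a gene's measure where the platform annotation gave it exactly 1 gene symbol, and the probe set with the highest mean over all arrays stood for the gene. All 31 members were found in this way among 11963 genes measured. RefSeq's gene list places 139 genes from the first to the last member, 45 of them protein-coding, of which 32 had such a probe set. The protein-coding gene among these that is no member is UNC119B. A further 3 protein-coding genes were read only by probe sets with several symbols, and the other 10 had no named probe set here.

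RNA of each line was hybridised to 2 Affymetrix HG-U133A arrays, 12 in all, from 5 ug of total RNA. The Hodgkin lines were KM-H2, L1236 and L428, and the lines of B-cell lymphoma were Namalwa, SU-DHL4 and SU-DHL6. All were untreated and grown in the same medium with serum. Namalwa is a Burkitt lymphoma line, and the SU-DHL lines come from diffuse large B-cell lymphoma. Each line stands for 1 patient's tumour. Per the series' design text, the arrays of both SU-DHL lines were new, and those of the other 4 lines had been published earlier.

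Neighbours on a chromosome seldom act in 1 pathway. Each gene as a rule has its own promoter, although some pairs start back to back, and neighbours have the dosage of their chromosome segment in common. Lines of classical Hodgkin lymphoma are known for heavily rearranged chromosomes. DNA was not measured in these samples. The members range over developmental transcription factors (TBX5, TBX3), ubiquitin ligase parts (FBXO21, WSB2), mitochondrial proteins (COX6A1, TRIAP1, GATC, SIRT4, ACADS), kinases and their regulators (PRKAB1, TAOK3, PEBP1) and factors of replication, RNA processing and translation (RFC5, POP5, GCN1).

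The promoter sequence of 4 places in the block is shown because the members with the largest differences in KM-H2 start there, after TBX3, which has no entry in the RefSeq promoter table used (build GRCh38.p14). The table held 26 of the 31 members. In 2 places neighbouring members start back to back: SPRING1 and RNFT2 start 246 bases apart and TRIAP1 and GATC 60 bases apart, on opposite strands. For these pairs the bases between the starts are given on the plus strand, and for FBXO21 and GCN1, both on the minus strand, the 250 bases before the start. Capitals mark matches, on either strand, to motifs searched for in all windows. These were the GC box, spelled GGGCGG and often read by Sp1. The CCAAT box of NF-Y was searched by its own letters. The core read by ETS factors was spelled CCGGAAG and the box read by the TATA-binding protein TATAAA, and no motif was contained in another.
SPRING1 and RNFT2, chr12:116738070-116738314: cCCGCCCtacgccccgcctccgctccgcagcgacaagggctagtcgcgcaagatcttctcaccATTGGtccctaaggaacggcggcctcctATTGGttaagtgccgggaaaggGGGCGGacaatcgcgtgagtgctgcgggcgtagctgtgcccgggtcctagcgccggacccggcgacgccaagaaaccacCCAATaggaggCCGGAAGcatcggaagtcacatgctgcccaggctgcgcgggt
TRIAP1 and GATC, chr12:120446385-120446443: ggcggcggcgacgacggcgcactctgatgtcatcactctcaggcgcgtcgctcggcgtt
FBXO21, chr12:117190471-117190720: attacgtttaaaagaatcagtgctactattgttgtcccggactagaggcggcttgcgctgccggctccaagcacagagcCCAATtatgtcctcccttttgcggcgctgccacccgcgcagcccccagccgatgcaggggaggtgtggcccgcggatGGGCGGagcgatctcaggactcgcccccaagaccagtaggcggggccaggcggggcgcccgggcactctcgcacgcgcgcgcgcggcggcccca
GCN1, chr12:120194716-120194965: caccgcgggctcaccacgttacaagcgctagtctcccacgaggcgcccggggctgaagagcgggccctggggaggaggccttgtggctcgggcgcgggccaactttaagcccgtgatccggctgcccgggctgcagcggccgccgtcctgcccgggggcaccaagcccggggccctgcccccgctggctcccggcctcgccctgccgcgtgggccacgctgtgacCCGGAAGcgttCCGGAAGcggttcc

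These sequences are rich in G and C, at 66.1% between SPRING1 and RNFT2, 69.5% between TRIAP1 and GATC, 67.6% before FBXO21 and 75.2% before GCN1. Over the 33 promoter windows of members, 300 bases each, the median was 64.0%, against 58.7% over all 35116 windows of the table. A GC box was found in 66.7% of the members' windows and 45.0% of all windows, a CCAAT box in 36.4% and 34.6%, an ETS core in 18.2% and 10.3%, and a TATA box in 3.03% and 11.5%. Among the 11 windows of members that lay at least 1 higher in KM-H2 on the log2 scale, 9 held a GC box, 6 a CCAAT box and 4 an ETS core. These matches describe the letters only.

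The arrays were alike in level, with a median log2 signal of 6.90 over arrays. The SU-DHL6 duplicates differed most, with 465 probe sets (2.09%) over 2-fold apart, against 17 to 122 in the other lines, and among members TRIAP1 lay 1.17 apart. Which of these duplicates is off was not tested. All 10 measured Hodgkin markers, CD30 (TNFRSF8) and CCL17 among them, were higher in each Hodgkin line than in each B-cell line, and all 9 measured B-cell markers, CD20 (MS4A1) and CD79A among them, were lower. In L1236, PAX5 at 9.66 and POU2AF1 at 10.69 came close to B-cell line means (9.81 in SU-DHL4 and 11.11 in SU-DHL6). The same genes had 5.88 and 4.985 in KM-H2 and 5.83 and 5.21 in L428. Of markers of other cells, 2 of 7 myeloid, 1 of 8 T and NK cell and 1 of 8 stromal, endothelial and epithelial genes were higher in each Hodgkin line, and 0 of 3 erythroid and platelet genes. In the other direction, 0 myeloid, 1 T and NK cell, 2 stromal, endothelial and epithelial and 0 erythroid and platelet genes were lower in each Hodgkin line. The mean log2 signal of the myeloid list was 5.83 in KM-H2, against 5.61 in L1236 and 5.53 in L428. For T and NK cells these means were 7.22 in KM-H2, against 7.06 in L1236 and 7.03 in L428. For the stromal list they were 5.85 in KM-H2, against 6.18 in L1236 and 5.84 in L428. The part of such cells in the values of the block was not tested.

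In KM-H2 most of the block lay above the other Hodgkin lines, though unevenly. The median over the 31 members of KM-H2 minus the mean of L1236 and L428 was 0.74 on the log2 scale, against 0.01 over all genes. The difference was above 0 for 29 members and at least 1, a 2-fold difference, for 10 (32.3%). Over all genes 3.97% lay that far up. No member lay 1 or more below, against 3.86% of all genes. Both KM-H2 arrays exceeded all 4 arrays of L1236 and L428 for 19 members (20.5% of all genes). The array reads RNA of a whole culture, so fewer expressing cells and less RNA per cell cannot be told apart. Since these values chose the members, they are a description.

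**Figure D1:**
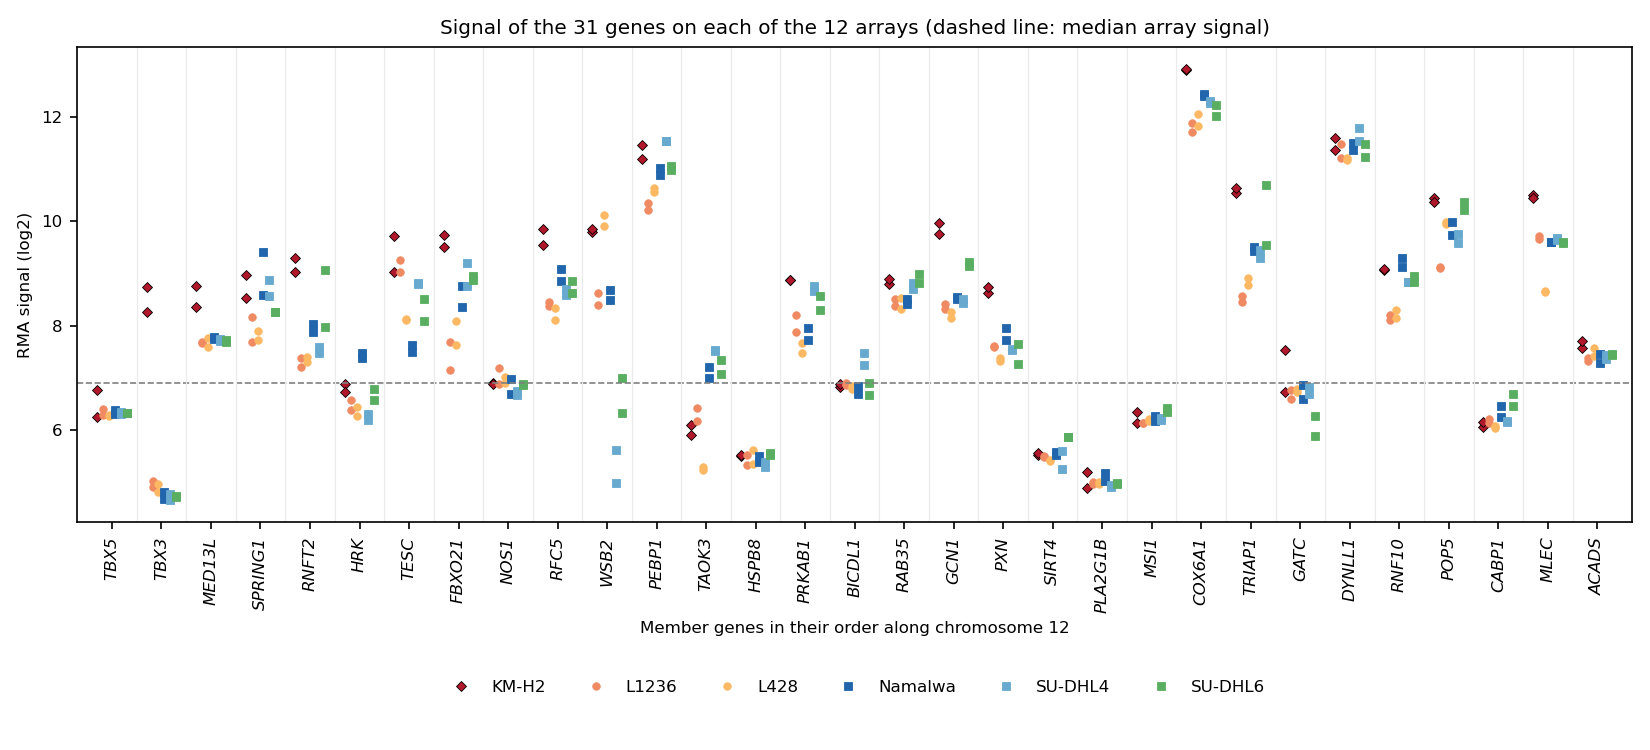
RMA signal (log2) of the 31 member genes in their order along chromosome 12, with 1 point per array; diamonds are KM-H2, circles the other Hodgkin lines, squares the B-cell lines, and the dashed line is the median array signal of 6.90. KM-H2 stands apart most in TBX3, whereas the points of HSPB8 and PLA2G1B, both below the dashed line, lie together in all lines.

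The transcription factors differed most among themselves. TBX3, a T-box repressor that acts in limb and breast development, had 8.73 and 8.25 in KM-H2, against 5.02 and 4.90 in L1236 and 4.96 and 4.80 in L428. On the 6 B-cell arrays it ranged from 4.64 to 4.81 with a median of 4.72. KM-H2 thus stood 3.57 above the mean of L1236 and L428. The other 5 lines lay below the lower quartile of array signal (5.72), where background cannot be told from expression, and with their values raised to it the difference was 2.77. MED13L, a subunit of the Mediator kinase module, had 8.76 and 8.35 in KM-H2, against 7.68 and 7.66 in L1236 and 7.59 and 7.75 in L428, a difference of 0.88. Its B-cell arrays lay between 7.68 and 7.78 with a median of 7.73, close to L1236 and L428. TBX5, a T-box factor of heart and forelimb, differed by 0.20, with 6.24 and 6.77 on the KM-H2 arrays, which overlapped those of L1236 (6.28 and 6.39) and L428 (6.28 and 6.27).

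All 4 members that carry a RING, F-box or SOCS-box type domain of ubiquitin ligases lay above the mean of the other Hodgkin lines. FBXO21, a substrate receptor of SCF ubiquitin ligases, had 9.51 and 9.74 in KM-H2, against 7.68 and 7.15 in L1236 and 8.09 and 7.63 in L428. Its difference of 1.99, a 3.98-fold one, was the second in size of the block. On the B-cell arrays it ranged from 8.35 to 9.19 with a median of 8.82, so that L1236 and L428 lay below all B-cell arrays and KM-H2 above them. RNFT2, a RING-finger membrane protein, had 9.29 and 9.03 in KM-H2, against 7.21 and 7.37 in L1236 and 7.30 and 7.39 in L428, a difference of 1.84. Its B-cell arrays ran from 7.47 to 9.06 with a median of 7.92, the highest being SU-DHL6 replicate 2. RNF10, also a RING-finger protein, had 9.07 and 9.09 in KM-H2, against 8.11 and 8.21 in L1236 and 8.15 and 8.30 in L428, a difference of 0.89. On the B-cell arrays RNF10 ranged from 8.83 to 9.30 with a median of 8.90, which includes the KM-H2 values. WSB2, a SOCS-box substrate receptor, had 9.79 and 9.84 in KM-H2, against 8.63 and 8.40 in L1236 and 10.1 and 9.90 in L428, a difference of 0.55. Here L428 and not KM-H2 was highest.

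Among factors of replication, RNA and translation, GCN1, the ribosome-bound activator of the stress kinase GCN2, had 9.76 and 9.97 in KM-H2, against 8.41 and 8.32 in L1236 and 8.25 and 8.14 in L428. The difference was 1.59, and both KM-H2 values exceeded the B-cell arrays (8.43 to 9.22, median 8.53). RFC5, a subunit of the clamp loader that opens PCNA onto DNA, had 9.86 and 9.55 in KM-H2, against 8.38 and 8.45 in L1236 and 8.34 and 8.10 in L428, a difference of 1.39. The B-cell arrays of RFC5 lay between, at 8.58 to 9.09 with a median of 8.78. POP5, a subunit of RNase P, had 10.44 and 10.38 in KM-H2, against 9.12 and 9.10 in L1236 and 10.00 and 9.95 in L428, a difference of 0.87. MSI1, a Musashi RNA-binding protein of neural stem cells, lay at 6.13 to 6.42 on every array and differed by 0.07.

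The mitochondrial members split by level. COX6A1, a subunit of cytochrome c oxidase, had 12.90 and 12.93 in KM-H2, against 11.72 and 11.88 in L1236 and 11.83 and 12.06 in L428, a difference of 1.04. Its B-cell arrays ran from 12.02 to 12.45 with a median of 12.29, all below KM-H2. TRIAP1, a p53-regulated inhibitor of apoptosis that also takes part in mitochondrial lipid transfer, had 10.54 and 10.63 in KM-H2, against 8.56 and 8.45 in L1236 and 8.91 and 8.78 in L428. The difference was 1.91, or 3.77-fold. On the B-cell arrays TRIAP1 ranged from 9.29 to 10.7 with a median of 9.47, the highest again being SU-DHL6 replicate 2. GATC, a subunit of the amidotransferase that charges mitochondrial glutamine tRNA and the back-to-back partner of TRIAP1, differed by 0.41, but its KM-H2 duplicates lay 0.81 apart, the widest gap of a member in that line. ACADS, the short-chain acyl-CoA dehydrogenase, differed by 0.22 and SIRT4, a mitochondrial sirtuin with a mean signal of 5.54, by 0.08.

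Of the lipid and membrane group, MLEC, a glycan-binding lectin of the endoplasmic reticulum, had 10.51 and 10.45 in KM-H2, against 9.66 and 9.71 in L1236 and 8.67 and 8.64 in L428, a difference of 1.31. Its 6 B-cell arrays, at 9.59 to 9.69 with a median of 9.61, lay close to L1236, with KM-H2 above them and L428 below. SPRING1, which supports the SREBP pathway of sterol control, had 8.53 and 8.96 in KM-H2, against 8.16 and 7.68 in L1236 and 7.89 and 7.73 in L428, a difference of 0.88. It shares its start region with RNFT2, shown above. On the B-cell arrays SPRING1 ranged from 8.25 to 9.40 with a median of 8.58, which includes the KM-H2 values. PLA2G1B, a secreted phospholipase of the pancreas, lay at 4.89 to 5.19 on all arrays.

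In the transport and adhesion group, PXN, the focal adhesion protein paxillin, had 8.62 and 8.73 in KM-H2, against 7.59 and 7.61 in L1236 and 7.32 and 7.38 in L428. The difference was 1.20, and its B-cell arrays (7.26 to 7.95, median 7.60) resembled L1236 and L428. RAB35, a GTPase of endocytic recycling, differed by 0.40, DYNLL1, a light chain of dynein, by 0.21 and BICDL1, a dynein adaptor, by 0.01. DYNLL1 ranged from 11.17 to 11.79 over all arrays, with the KM-H2 values inside the range of the B-cell arrays.

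Of the 8 genes of signalling and cell death, 1 reached a difference of 1. PRKAB1, the beta subunit of the energy sensor AMPK, had 8.87 and 8.86 in KM-H2, against 8.19 and 7.88 in L1236 and 7.67 and 7.47 in L428, a difference of 1.07. SU-DHL4 came close to KM-H2, with 8.67 and 8.76. PEBP1, an inhibitor of RAF kinase, differed by 0.89, and its KM-H2 values of 11.19 and 11.46 lay inside the B-cell range of 10.90 to 11.54. TESC, a calcium-binding protein of the calcineurin B type, differed by 0.74, HRK, a BH3-only activator of cell death, by 0.39 and TAOK3, a STE20-type kinase, by 0.22. The KM-H2 arrays of TESC, at 9.02 and 9.73, overlapped those of L1236 (9.25 and 9.04) and lay above L428 (8.10 and 8.12). TAOK3 had 5.89 and 6.09 in KM-H2, below L1236 (6.17 and 6.41) and above L428 (5.28 and 5.23). HSPB8, a small heat shock protein, differed by 0.05, CABP1, a neuronal calcium sensor, by -0.01 and NOS1, the neuronal nitric oxide synthase, by -0.10.

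Level and difference went together in part. Members with a mean over the 12 arrays at or above the median array signal numbered 20, and their median difference was 0.89, with 9 of them at 1 or more. The 11 dimmer members had a median of 0.08, and TBX3 was the only one of these at 1 or more. For all genes the corresponding medians were 0.00 for 7133 brighter and 0.01 for 4830 dimmer genes. Whether these arrays could detect a shift of the size seen in neighbours for members near background was not tested. The 17 members with several probe sets had 24 further probe sets on the same arrays, 21 of them above 0 with a median of 0.63. They did not always run together. MED13L had differences of 0.66 to 2.19 by its other 3 probe sets, against 0.88 by the representative. A dim probe set of FBXO21 gave 0.13 and a dim one of RFC5 gave 0.09. The remaining, brighter probe set gave 1.74 for FBXO21 and 1.24 for RFC5. PEBP1 (0.77 and 0.94), GCN1 (1.54) and RNFT2 (1.56) gave values by their other probe sets close to those above. MLEC gave 0.57 by its other probe set, against 1.31 by the representative, PXN 0.77 against 1.20 and PRKAB1 0.82 against 1.07. The other probe set of TBX5, a dim one, gave 0.59, against 0.20 by the representative. HRK gave 0.72 and -0.03 by its other probe sets, against 0.39.

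Beyond the ends of the block the median values were lower. The members were chosen by this same difference, so the drop at the ends and the peak inside carry no test. The measured gene just before TBX5, RBM19, differed by 0.05, and the 4 before it, LHX5, SLC8B1, TPCN1 and RITA1, by 0.02, -0.04, -0.03 and 0.27. Just beyond ACADS, CLIC1P1 differed by 0.02, OASL by -0.14 and P2RX7 by -0.25, but P2RX4 by 0.63 and CAMKK2, the kinase that activates AMPK, by 0.95. UNC119B, which lies inside between MLEC and ACADS, differed by 1.23. The median of the 20 measured genes before the block was 0.09 and that of the 20 beyond it 0.09, with 0 at 1 or more on either side. Over the 643 measured genes of chromosome 12 that are no member it was 0.01. A running median over 15 genes reached 0.88 at FBXO21, the highest value of the chromosome. It reached 0.87 over a window with no member, centred on CHST11, so a raised stretch in KM-H2 was not particular to the block on this chromosome.

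**Figure D2:**
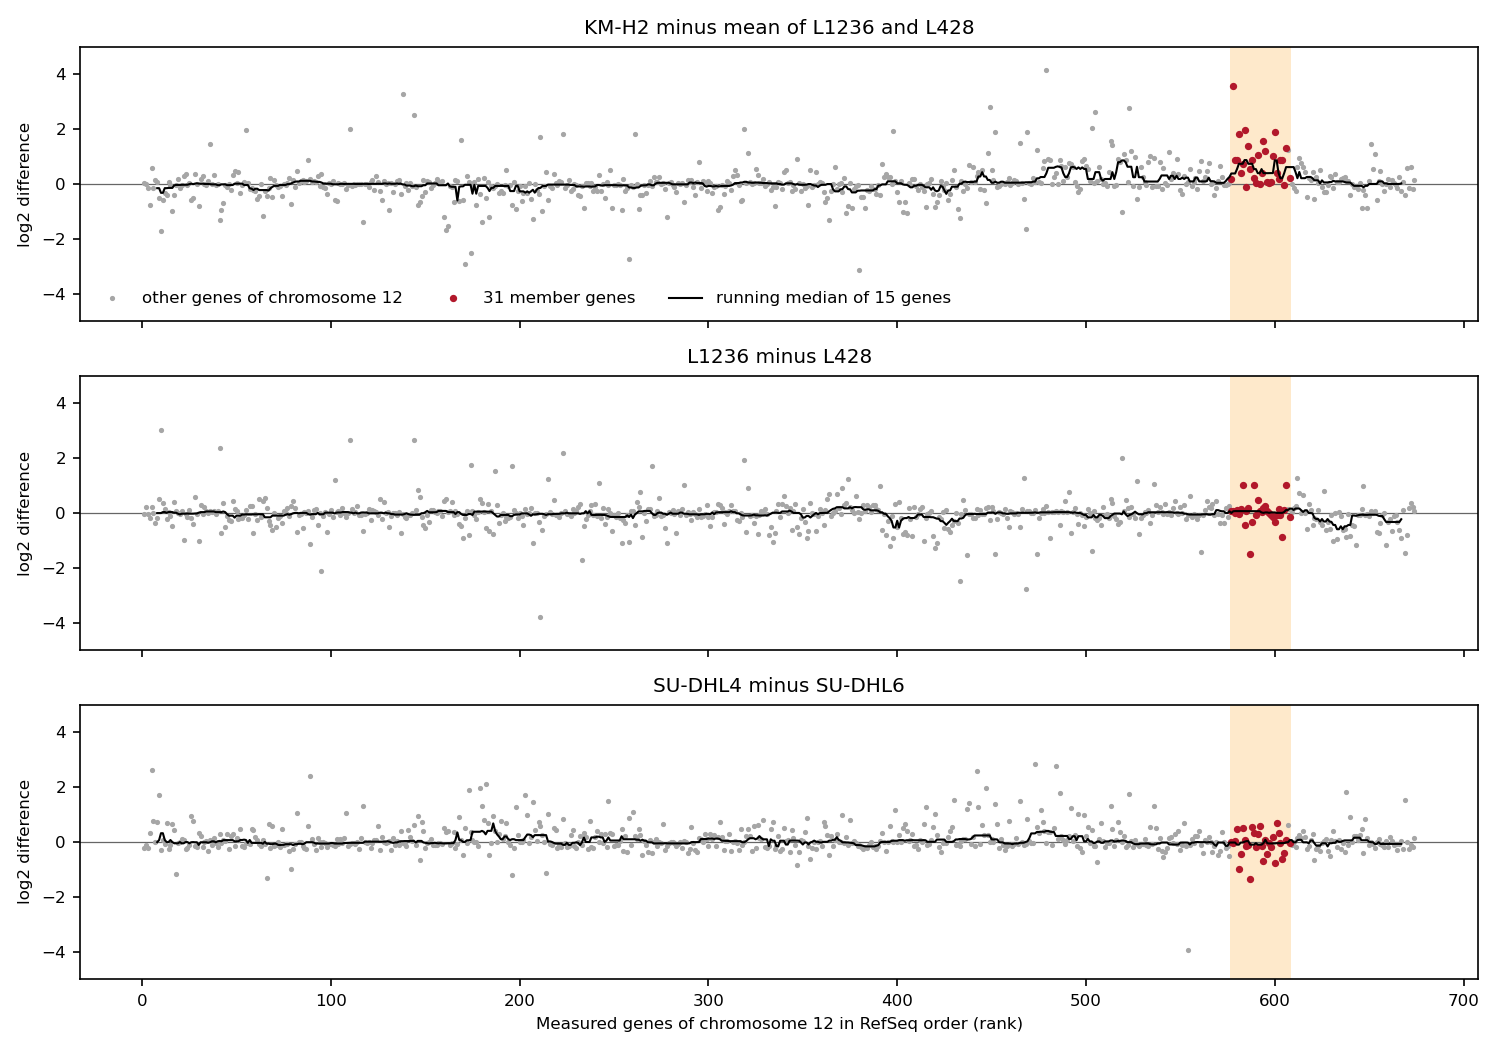
Log2 differences of 674 measured genes of chromosome 12 by their rank in RefSeq order, for KM-H2 minus the mean of L1236 and L428 (top), L1236 minus L428 (middle) and SU-DHL4 minus SU-DHL6 (bottom); red points are the 31 members, the shaded band runs from the first to the last of them, and the line is the running median of 15 genes. In the top panel the line rises within the band to 0.88 and also over an earlier stretch, where it reaches 0.87; in the lower panels the members' medians are 0.06 and -0.05.

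KM-H2 was also set against the B-cell lines. KM-H2 and Namalwa belong to the earlier dataset and both SU-DHL lines to the new one, so line and dataset are partly mixed. The median over members of KM-H2 minus the mean of the B-cell lines was 0.23, against 0.01 over all genes, with 6 members (19.4%) at 1 or more, where 4.99% of all genes lay, and 1, TAOK3, at -1 or less (5.31% of all genes). The line mean of KM-H2 lay above those of all 3 B-cell lines for 18 members, within their range for 11 and below for 2, TAOK3 and CABP1. Both KM-H2 arrays exceeded all 10 arrays of the other lines for 11 members (8.91% of all genes), namely TBX3, MED13L, FBXO21, RFC5, PRKAB1, GCN1, PXN, COX6A1, POP5, MLEC and ACADS. Without SU-DHL6 replicate 2 the count was 13 (9.71% of all genes), RNFT2 and TRIAP1 being added, and without SU-DHL6 replicate 1 it was 11 (9.64% of all genes). Both of these counts were added after seeing the data. High values in KM-H2 push down the same difference taken for the other Hodgkin lines. L1236 minus the mean of KM-H2 and L428 was at least 1 for 0 members (3.73% of all genes) and -1 or less for 5 (3.43%), and L428 minus the mean of KM-H2 and L1236 for 0 (3.35%) and 3 (3.05%). These values use the KM-H2 arrays that chose the members, so they too carry no test.

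L1236 and L428 in turn lay below the B-cell lines for many members. The Hodgkin lines and Namalwa belong to the earlier dataset and both SU-DHL lines to the new one. Lymphoma type and dataset are therefore partly mixed here. Both line means were below all 3 B-cell line means for 14 members (18.1% of all genes) and above them for 2 (16.3% of all genes). The median difference of their mean from that of the B-cell lines was -0.25, against -0.01 over all genes, and 24 of 31 members were below 0. In the same comparison the median was -0.50 over the 20 measured genes before the block and -0.055 over the 20 beyond it. Low values in L1236 and L428 were thus not particular to the block. The largest differences of members were those of WSB2 at 2.42, TAOK3 at -1.50 and FBXO21 at -1.18. Low values in L1236 and L428 enlarge the difference that chose the members, so these values are a description and carry no test. The authors' deposited table of all 3 Hodgkin lines against the B-cell lines, which also holds the arrays that chose the members, gives WSB2 as higher by 2.60 (adjusted p = 0.0188) and TAOK3 as lower with -1.43 (adjusted p = 0.00082). No other member has an adjusted p under 0.05 in the authors' deposited table, where 6.02% of all genes pass as higher and 8.69% as lower. Duplicate arrays of a line are not separate tumours. If arrays served as replicates in that table, its p-values overstate the evidence on lymphoma type. In limma on line means without KM-H2, WSB2 (adjusted p = 0.439) and TAOK3 (adjusted p = 0.172) did not pass.

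**Figure D3:**
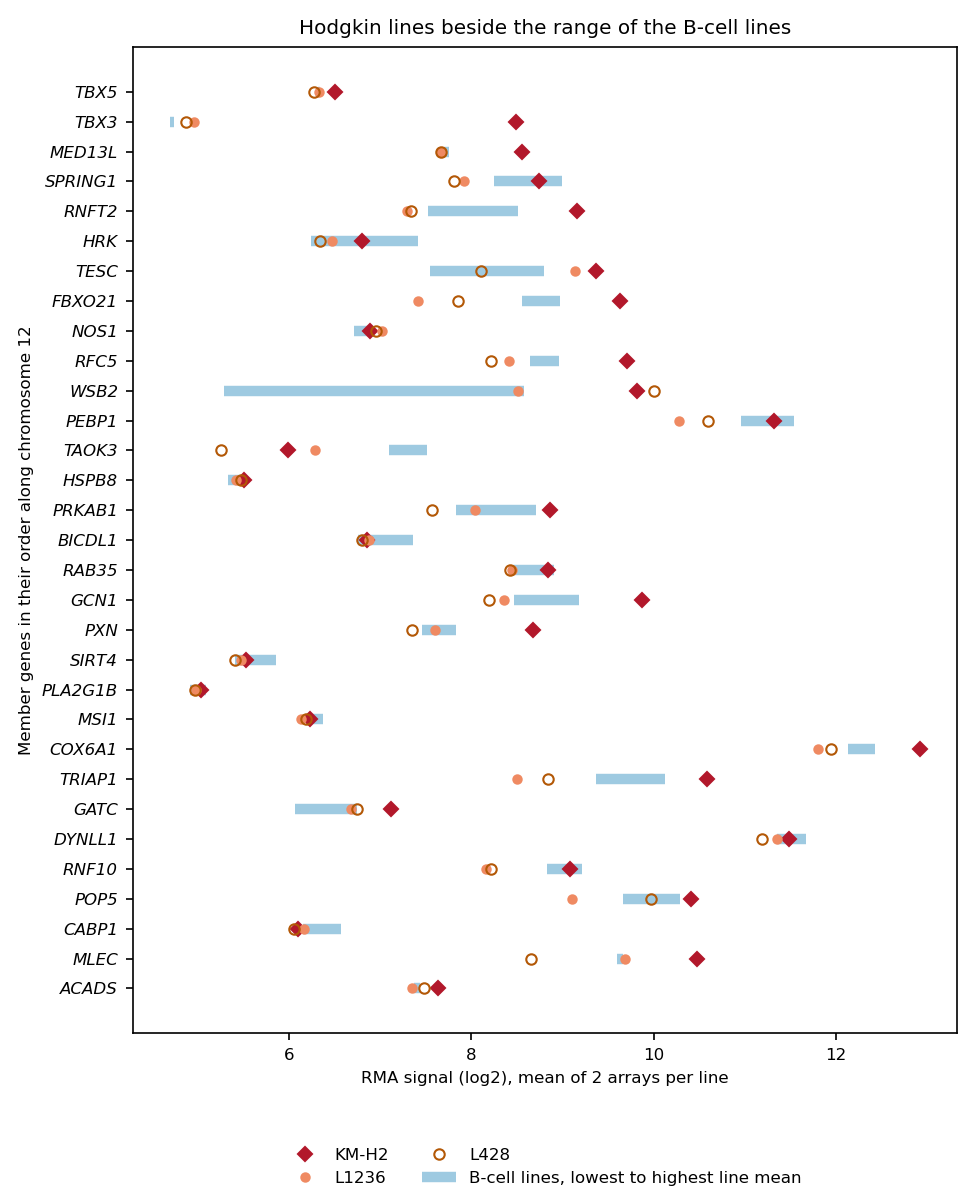
Mean RMA signal (log2, 2 arrays per line) of KM-H2 (diamonds), L1236 (filled circles) and L428 (open circles) beside a bar from the lowest to the highest B-cell line mean, for the 31 members from TBX5 at the top to ACADS at the bottom. KM-H2 lies to the right of the bar for 18 members, and L1236 and L428 both lie to its left for 14.

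The difference between L1236 and L428 and the differences among the B-cell lines were not used to choose the members, and in these comparisons the block did not move as one. Calls needed a Benjamini-Hochberg adjusted p under 0.05 over all probe sets in limma and a log2 difference of at least 1. The spread is that between duplicate arrays, for which separate cultures are not stated in the sources used here, so it may be technical. Between L1236 and L428, 3 members rose in L1236 (9.68%, against 3.80% of all genes) and 1 fell (3.23%, against 3.77%), and the median over members was 0.06. The called genes lie apart in the block, with others between them that were not called.

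TAOK3 had 6.17 and 6.41 in L1236, against 5.28 and 5.23 in L428, a difference of 1.04 ± 0.13 (SE, limma adjusted p = 0.000314). Its L428 values lay below the lower quartile of array signal, and with low values raised to that floor the difference was 0.57 (adjusted p = 0.0279, range over alternatives 0.000178 to 0.0279). Without L1236 replicate 2 it was 0.91, also under the 2-fold minimum. TESC had 9.25 and 9.04 in L1236, against 8.10 and 8.12 in L428, a difference of 1.03 ± 0.21 (adjusted p = 0.00614). Without L1236 replicate 1 TESC did not pass (0.93, adjusted p = 0.0551, range 0.00105 to 0.0551). MLEC, whose arrays are given above, was higher in L1236 by 1.03 ± 0.08 (adjusted p = 1.1e-05). The 2 lines did not overlap in any of these genes. By the mean of its 2 probe sets MLEC lay 0.74 higher, under the 2-fold minimum, and TAOK3 0.67. WSB2 fell in L1236, with 8.63 and 8.40 against 10.1 and 9.90 in L428, a difference of -1.49 ± 0.24 (adjusted p = 0.0014). By the adjusted p alone 6 members passed (23.1% of all genes): besides these 4, POP5 did with -0.86 ± 0.11 (adjusted p = 0.000341) and PRKAB1 with 0.47 ± 0.14 (adjusted p = 0.04, range over alternatives 0.0151 to 0.283), both under the 2-fold minimum.

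Within the B-cell lines WSB2 was the member that varied most. It had 8.68 and 8.49 in Namalwa, against 4.98 and 5.61 in SU-DHL4 and 6.32 and 6.99 in SU-DHL6, and no 2 of these lines overlapped. Namalwa exceeded the mean of the SU-DHL lines by 2.61 ± 0.21, a 6.10-fold difference (limma adjusted p = 3.1e-05). SU-DHL4 was below the mean of Namalwa and SU-DHL6, with a difference of -2.33 ± 0.21 (adjusted p = 7.4e-05) and below SU-DHL6 alone with -1.36 ± 0.24 (adjusted p = 0.00358). With low values raised to the lower quartile the gap to SU-DHL6 was -0.94 (adjusted p = 0.0364, range over alternatives 0.000959 to 0.0364), under the 2-fold minimum. Both SU-DHL4 values were under the lower quartile of array signal. TESC, with 7.62 and 7.49 in Namalwa, 8.82 and 8.79 in SU-DHL4 and 8.09 and 8.52 in SU-DHL6, was lower in Namalwa with a difference of -1.0015 ± 0.18 (SE, limma adjusted p = 0.00469), a value at the 2-fold minimum. It fell short of that minimum without Namalwa replicate 2 (-0.94), without the first SU-DHL4 array (-0.99) and without the second of SU-DHL6 (-0.90).

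No other member was called among the B-cell lines. For Namalwa against the SU-DHL lines 1 member was called higher (3.23%, against 2.01% of all genes) and 1 lower (3.23%, against 1.81%). For SU-DHL4 against Namalwa and SU-DHL6 0 were higher (1.89% of all genes) and 1 lower (3.23%, against 1.87%), and for SU-DHL4 against SU-DHL6 0 higher (2.98%) and 1 lower (3.23%, against 2.52%). SU-DHL6 against Namalwa and SU-DHL4 gave 0 in limma in both directions (1.93% and 2.35% of all genes), with 7 higher and 5 lower at an unadjusted p under 0.05 (38.7% of members, against 31.8% of all genes). Medians over members in these 4 comparisons, which share arrays with each other, lay between -0.05 and -0.01. Namalwa belongs to the earlier dataset and the SU-DHL lines to the new one, so in the comparison of Namalwa with both SU-DHL lines the line and the dataset cannot be told apart, and the comparisons that average Namalwa with an SU-DHL line mix datasets. L1236 with L428, and SU-DHL4 with SU-DHL6, come from 1 dataset each.

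By the adjusted p alone, 8 members passed for Namalwa against the SU-DHL lines (17.1% of all genes), 8 for SU-DHL4 against Namalwa and SU-DHL6 (16.3%), 5 for SU-DHL6 against Namalwa and SU-DHL4 (19.5%) and 9 for SU-DHL4 against SU-DHL6 (17.8%). They ran in both directions in each. HRK had 7.48 and 7.37 in Namalwa, against 6.30 and 6.19 in SU-DHL4 and 6.57 and 6.77 in SU-DHL6, 0.97 ± 0.10 above the SU-DHL mean (limma adjusted p = 0.000194), and 0.61 by the mean of its 3 probe sets. GCN1 had 9.22 and 9.14 in SU-DHL6, 0.68 ± 0.08 above the mean of Namalwa and SU-DHL4 (adjusted p = 0.00047). The other probe set of GCN1 gave 0.19 (adjusted p = 0.551), and the mean of both 0.44 (adjusted p = 0.0225, range over alternatives 0.000452 to 0.0225). POP5 was above it in SU-DHL6 by 0.53 ± 0.09 (adjusted p = 0.00405). GATC was below it with -0.66 ± 0.20 (adjusted p = 0.0485, range over alternatives 0.00825 to 0.267), while its partner TRIAP1 was 0.70 above it and did not pass, its SU-DHL6 duplicates being 9.54 and 10.7. Without SU-DHL6 replicate 1, TRIAP1 and RNFT2 were called in both comparisons of SU-DHL6, 2 members higher in SU-DHL6 against Namalwa and SU-DHL4, and 3 lower in SU-DHL4 against SU-DHL6 with WSB2.

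**Figure D4:**
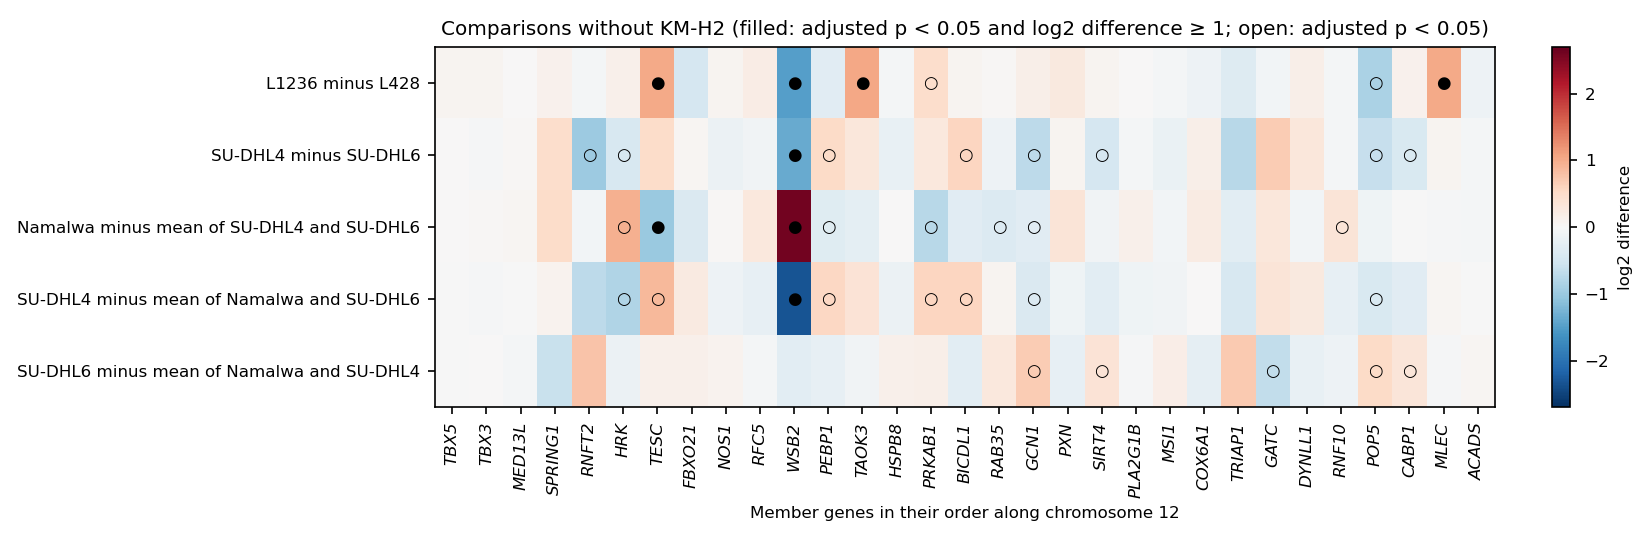
Log2 differences of the 31 members (columns, in chromosomal order) in the 5 comparisons without KM-H2 and within a lymphoma type (rows), from blue (lower in the first-named line) to red (higher); filled circles mark an adjusted p under 0.05 with a difference of at least 1, open circles an adjusted p under 0.05 alone. Filled circles stand at TESC, WSB2, TAOK3 and MLEC in the top row and at WSB2 and TESC below.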

How the data were processed

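The authors deposited log2 RMA signals for 22283 probe sets on 12 arrays. Per the submitters' processing notes these were made with RMA in R version 2.10.1, and its settings are not stated in those notes. The authors also deposited p-values, unadjusted and Benjamini-Hochberg adjusted, and log2 differences of Hodgkin against B-cell lines from a moderated test, per the series' design text; their differences matched those of the array means.

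After 68 control probe sets were left out, limma 3.58.1 in R 4.3.3 was fitted to 22215 probe sets with 1 coefficient per line, two-sided, with Benjamini-Hochberg adjustment over all of them. For L1236 and L428 against the B-cell lines it was fitted to line means, which share arrays with the choice of members. Its differences are therefore a description, and the counts from it given below are read as no test. Of the probe sets 19065 had 1 gene symbol, 1043 several and 2107 none; 19053 matched the RefSeq table by Entrez identifier. The steps were tested on simulated data. An array has no read depth; the number of arrays limits the precision.

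The members and the marker lists were chosen with earlier results of these data known. Values on every array were to be given for members with a KM-H2 difference of at least 1 and for members called without KM-H2; arrays of some others were added after their values were seen. Alternatives were the filter on dim probe sets, the prior for the spread, the probe set of a gene, centring, a floor, the call rule, a replicate block and leaving out arrays or lines.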

Additional observations from a re-analysis of the deposited data

How the results depend on the processing

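With the mean of all probe sets of a gene, 2 members, TESC and WSB2, were called between L1236 and L428, against 4 by the representative probe set, and leaving out each array in turn gave 3 to 4. By the adjusted p alone, limma passed 8 members for Namalwa against the SU-DHL lines (2 with the 2-fold minimum), 8 for SU-DHL4 against Namalwa and SU-DHL6 (1 with it), 5 for SU-DHL6 against Namalwa and SU-DHL4 (0 with it) and 9 for SU-DHL4 against SU-DHL6 (1 with it); fewer criteria account for the rise by construction. With low values raised to a floor, SU-DHL4 against SU-DHL6 gave 0. Leaving out each array gave 1 to 2 members for Namalwa (1 without the first SU-DHL4 array), 1 for SU-DHL4, 0 to 2 for SU-DHL6 and 1 to 3 for SU-DHL4 against SU-DHL6, the last 2 ranges at their highest without SU-DHL6 replicate 1. A line with 1 array left was assumed to vary like the others. For Hodgkin against B-cell lines the authors' deposited table gave 2 members. It holds KM-H2, and its replicates may be arrays and not lines. For L1236 and L428 against the B-cell lines, limma on line means gave 0 (1 higher and 8 lower at an unadjusted p under 0.05, 29.0% of members against 15.1% of all genes). That fit shares arrays with the choice of members and is read as no test; leaving out lines or SU-DHL6 replicate 2 gave 0 in it. The last of these was chosen after seeing the data. The median KM-H2 difference was 0.60 with the probe set of largest variance, against 0.74, and 0.52 (without KM-H2 replicate 2) to 0.81 without each array. Members at 1 or more numbered 7 to 13 over all alternatives, and RFC5 had 0.09 by its probe set of largest variance. RNF10 in Namalwa against the SU-DHL lines turned from 0.35 to -0.15 with the probe set of largest variance (limma adjusted p = 0.631, range over alternatives 0.0161 to 0.631); the cause was not tested. Of 160 alternative values for the 8 calls of members, 9 lost the call. With the replicate number as a block the counts were 4, 2, 1, 0 and 1, as without it. Deviations of same-numbered arrays had no common direction over lines, with correlations of -0.44 to 0.30 over 15 pairs of lines and 4 over 0.1. Some pairs of lines may thus share deviations. The line means allow no block. Low signal limits the 11 dimmer members, and some of them lie near background.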

Other observations

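A second stretch of chromosome 12, from SOCS2 to CRY1, also lay higher in KM-H2 than in the other Hodgkin lines. It was chosen after its values were seen, so it carries no test. Over its 49 measured genes the median of KM-H2 minus the mean of L1236 and L428 was 0.56, with 38 above 0 and 8 (16.3%) at 1 or more, where 3.97% of all genes lay. SOCS2, a feedback inhibitor of cytokine signalling, averaged 10.0 in KM-H2, against 6.02 in L1236 and 5.76 in L428. The difference was 4.16, the largest of the stretch. CKAP4, a membrane protein of the endoplasmic reticulum, differed by 2.79, DRAM1, a p53-regulated lysosomal membrane protein, differed by 2.65, CHPT1, which makes phosphatidylcholine, by 2.04, HSP90B1, a chaperone of the endoplasmic reticulum, by 1.58, TDG, a DNA glycosylase, by 1.42, POLR3B, a subunit of RNA polymerase III, by 1.21, and WASHC4, a subunit of the endosomal WASH complex, by 1.09. DRAM1 lay below the lower quartile of array signal (5.72) in L1236 and L428, so its difference is against values that cannot be told from background. CHST11, a chondroitin sulfotransferase, went the other way with -1.01, its value in L1236 being 8.52. The 49 measured genes between CRY1 and the 12q24 block had a median of 0.10, with 2 at 1 or more, so the raised stretches were separated by genes closer to the level of the other lines.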
